A study of Mus musculus with 12 samples.

Results

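Type H vessels and libraries labelled sinusoidal, both sorted from crushed mouse bone, were compared across every gene in the deposited table. The comparison used 6 of the 12 libraries in the series, chosen by the population their columns name, with 3 libraries on each side. All came from untreated B6 mice (the C57BL/6 background, with no altered allele named) kept free of pathogens, and neither age nor sex is given in the sources used here. The type H libraries were made from CD45- cells positive for CD31, Sca1 and EMCN (endomucin). Type H is the name their titles give, and whether it describes the cells was not tested. The libraries labelled sinusoidal were made from CD45- cells positive for CD31 and Sca1, with no EMCN gate, so that as labelled their gate also takes in the type H cells. The other populations, 3 arterial libraries (CD45- cells positive for CD31 and Sca1 and negative for CD200) and 3 CD200-high capillary libraries (EMCN- cells with high CD200 from the same CD31, Sca1 and CD45 gate), entered the estimate of the spread and serve below as points of reference for levels. The triplicates were prepared from 6 mice. Which mouse gave which library is known only as a mouse number, and p-values measure the spread between these libraries.

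Type H vessels are the capillaries of the growing end of long bones and of the inner bone surface. They are known for high CD31 and endomucin and for bone-forming cells gathered around them, and VEGF, Notch and BMP signals act in their growth. Marrow sinusoids are wide, leaky venous vessels that drain the marrow. They clear particles from blood through scavenger receptors such as the stabilins, express the receptor VEGFR3, and let new blood cells and platelets into the circulation. Marrow sorting schemes commonly take arteriolar endothelium as high and sinusoidal endothelium as low in Sca1.

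Of the antigen genes, Emcn, Ly6a, Pecam1 and Cd200 were higher and Ptprc lower in type H than in the libraries labelled sinusoidal. Levels are log2 CPM (counts per 1e6 reads), on which a difference of 1 is a factor of 2, each difference is type H minus labelled sinusoidal with its SE after ±, and limma gave the adjusted p. Emcn, the endomucin gene, stood at 9.04, 9.03 and 8.99 log2 CPM in type H replicates 1, 2 and 3 and at 2.22, 2.82 and 1.21 in the libraries labelled sinusoidal. The groups did not overlap, and the difference was 6.94 ± 0.37 (adjusted p = 1.88e-07). Ly6a, which encodes Sca1, stood at 9.30, 8.93 and 8.52 in type H and at 3.67, 3.61 and 4.87 in the libraries whose gate was labelled Sca1+, a difference of 4.87 ± 0.32 (adjusted p = 7.97e-07). Pecam1, which encodes the adhesion molecule CD31 of endothelium and platelets, was nearer between the groups at 9.06, 8.99 and 8.87 against 6.44, 6.02 and 6.20 (difference 2.75 ± 0.24, adjusted p = 6.42e-06). Ptprc, which encodes the blood cell antigen CD45, was lower in type H, at 3.75, 3.55 and 4.62 against 6.86, 6.25 and 6.53 (difference -2.57 ± 0.36, adjusted p = 0.000263). Cd200, a ligand that restrains myeloid cells, was at 7.80, 8.12 and 7.49 against 5.38, 5.39 and 5.51 (difference 2.38 ± 0.16, adjusted p = 1e-06). In all 5 antigen genes the 3 values of one population lay beyond the 3 of the other. Antigen RNA did not always follow the gates in the reference populations. Mean Emcn was 8.26 in the EMCN- CD200-high libraries and 6.56 in arterial libraries. Mean Ly6a was 10.19 and 9.78 there, above the 8.92 of type H. Mean Cd200 was highest in CD200-high libraries at 9.81, but the CD200- arterial libraries, at 7.68, were near the 7.80 of type H.

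**Figure D1:**
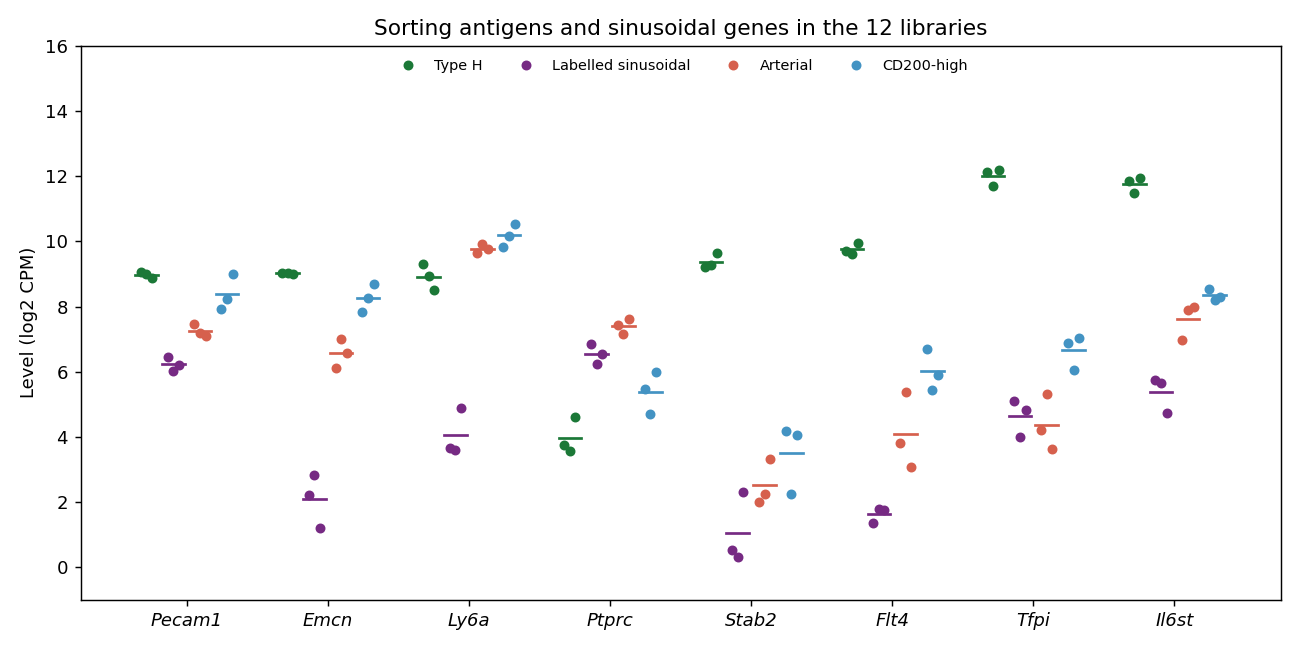
Levels of 4 sorting antigen genes (Pecam1, Emcn, Ly6a, Ptprc) and 4 sinusoidal genes (Stab2, Flt4, Tfpi, Il6st) in log2 CPM, with 1 point per library and a bar at the mean of the 3 libraries of each population. The libraries labelled sinusoidal are lowest in Emcn, Ly6a and Stab2 by mean, while the type H libraries stand above every other library in Stab2, Flt4, Tfpi and Il6st.

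Of 17086 genes tested, limma called 4882 at an adjusted p under 0.05, which is 28.6% of them. The 2383 genes higher in type H made up 13.9% and the 2499 lower genes 14.6%, and these shares are the background for each gene list below. The lists were chosen with earlier results of these data known, so their counts are description and not a test. In 46.8% of all genes the 3 values of one population lay beyond the 3 of the other. The differences were large: 689 called genes were higher and 1036 lower by more than 5 log2 units. The median difference over all genes was -0.20. The 6 libraries held 16.16 to 21.63 M listed reads (M, 1e6 reads). As these are bulk libraries, fewer cells of a type and less RNA per cell cannot be told apart in any of the results.

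**Figure D2:**
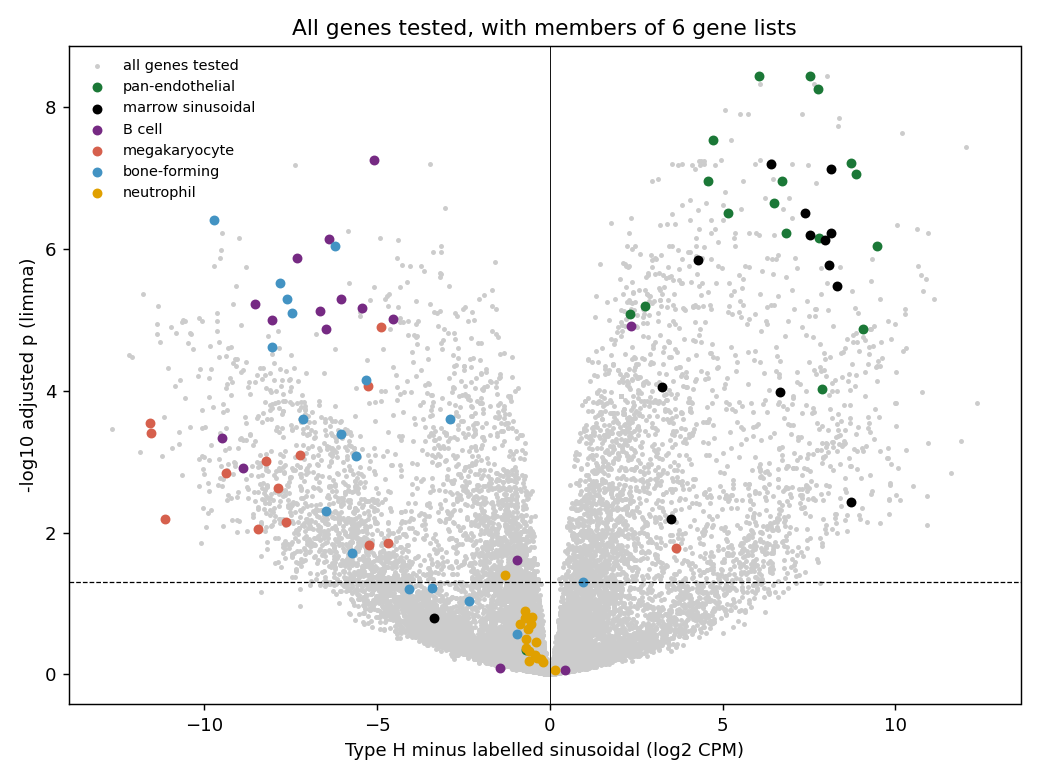
Each point is 1 of the 17086 genes tested, with the difference between type H and labelled sinusoidal libraries (log2 CPM) on the horizontal axis and -log10 of limma's adjusted p on the vertical axis, and a dashed line at adjusted p 0.05. Pan-endothelial and sinusoidal genes lie mostly to the right, B cell, megakaryocyte and bone-forming genes mostly to the left, and neutrophil genes near 0.

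Genes of marrow sinusoids were far higher in type H than in the libraries that carry the sinusoidal label. Of 14 sinusoidal genes tested, 13 were higher and 0 lower, with a median difference of 7.46 against -0.20 over all genes. Stab2, a scavenger receptor that clears hyaluronan, stood at 9.20, 9.27 and 9.63 log2 CPM in type H and at 0.51, 0.30 and 2.32 in the libraries labelled sinusoidal (difference 8.32 ± 0.66, adjusted p = 3.28e-06). Flt4, which encodes the receptor VEGFR3, stood at 9.70, 9.62 and 9.94 against 1.34, 1.77 and 1.74 (difference 8.14 ± 0.51, adjusted p = 5.83e-07). Both genes had mean levels between these populations in the others, with Stab2 at 2.53 in arterial and 3.49 in CD200-high libraries and Flt4 at 4.08 and 6.01. The other stabilin gene, Stab1, was higher by 7.96 ± 0.52 (adjusted p = 7.52e-07). Tfpi, an inhibitor of tissue factor made by endothelium, was at 12.14, 11.70 and 12.19 in type H and at 5.09, 3.99 and 4.83 in the libraries labelled sinusoidal (difference 7.37 ± 0.42, adjusted p = 3.13e-07). Il6st, the shared signalling chain of interleukin 6 family receptors, was higher by 6.40 ± 0.30 (adjusted p = 6.35e-08), Vcam1, an adhesion molecule for blood cells, by 4.28 ± 0.30 (adjusted p = 1.4e-06), and Adamts5, a matrix protease, by 8.13 ± 0.39 (adjusted p = 7.47e-08). The potassium channel genes Kcnj8 and Abcc9, which form 1 channel and are known in pericytes too, were higher by 8.08 ± 0.58 (adjusted p = 1.69e-06) and 7.54 ± 0.48 (adjusted p = 6.24e-07). Lrp1, an endocytic receptor gene of many cell types, was the member that did not pass (difference -3.36 ± 1.66, adjusted p = 0.16). Together the 14 genes took 1.36% to 1.76% of the reads in type H and 0.0201% to 0.0228% in the libraries labelled sinusoidal, and averaged 0.0928% in arterial and 0.0834% in CD200-high libraries.

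Transcripts shared by all endothelium were also scarce in the libraries labelled sinusoidal. Of 18 pan-endothelial genes, 17 were higher in type H and 0 lower (median 6.78). Their summed share was 1.19% to 1.22% of the reads in type H, 0.0407% to 0.0458% in the libraries labelled sinusoidal, and on average 0.270% in arterial and 0.537% in CD200-high libraries. Cdh5, the cadherin of endothelial junctions, stood at 8.55, 8.35 and 8.25 log2 CPM in type H and at -0.12, -1.54 and 0.26 in the libraries labelled sinusoidal (difference 8.85 ± 0.44, adjusted p = 8.62e-08). Kdr, the main VEGF receptor, stood at 10.50, 10.34 and 10.65 against 3.24, 4.12 and 4.64 (difference 6.50 ± 0.36, adjusted p = 2.25e-07). Egfl7, a matrix protein secreted by endothelium, was higher by 6.06 ± 0.18 (adjusted p = 3.58e-09), and Ramp2, a partner of the adrenomedullin receptor, by 7.52 ± 0.22 (adjusted p = 3.58e-09), each with no overlap. Esam, an adhesion molecule of endothelium and platelets, differed less, by 4.58 ± 0.23 (adjusted p = 1.1e-07), and Eng, a co-receptor for BMP and TGF-beta, by 4.71 ± 0.19 (adjusted p = 2.86e-08). Erg, an ETS transcription factor of endothelium, did not pass, at 3.74, 3.61 and 3.76 in type H and 4.49, 4.21 and 4.47 in the libraries labelled sinusoidal (difference -0.69 ± 0.61, adjusted p = 0.448).

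Clec14a, a C-type lectin of endothelium, stood at 10.18, 10.21 and 10.12 log2 CPM in type H and at -1.71, 2.53 and 2.48 in the libraries labelled sinusoidal (difference 9.07 ± 0.87, adjusted p = 1.33e-05), and was picked for display after its values were seen. Its promoter is shown because it holds the letters CAGGAA, which contain the core that ETS factors bind, at 95 bases before the start on the strand of the gene and at 3 bases after it on the other strand. The window runs from 250 bases before to 30 after the start, from RefSeq, build GRCm38.p6, chr12:58269229-58269508, minus strand, with both matches in capitals.
Clec14a: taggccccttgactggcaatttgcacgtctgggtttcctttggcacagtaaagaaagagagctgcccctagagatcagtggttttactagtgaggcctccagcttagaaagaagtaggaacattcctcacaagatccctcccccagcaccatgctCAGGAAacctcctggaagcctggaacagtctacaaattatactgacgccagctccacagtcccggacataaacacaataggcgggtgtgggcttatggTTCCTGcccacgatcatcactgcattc
Searched on both strands over 250 bases before to 50 after each start, CAGGAA was in 8 of 14 promoters of the pan-endothelial genes that matched the RefSeq table (57.1%, from 10 of 18 genes), against 27.9% of the 15222 promoters of tested genes and 30.6% of all promoters there. A match is a run of letters, not a shown binding site.

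Among vessel subtypes, most capillary and venous genes were higher in type H, and 9 of 16 arterial genes were. Of 15 capillary genes, 13 were higher and 0 lower (median 3.43). Aplnr, the apelin receptor, stood at 10.98, 11.20 and 10.80 against 2.50, 3.41 and 2.99 log2 CPM (difference 8.03 ± 0.23, adjusted p = 3.58e-09), and no gene tested had a smaller p. Gpihbp1, which holds lipoprotein lipase on the capillary wall, was higher by 8.38 ± 0.31 (adjusted p = 1.4e-08), and the fatty acid carrier gene Fabp4 by 7.64 ± 0.24 (adjusted p = 4.68e-09). Plvap, of the diaphragms that close endothelial openings, was higher by 7.68 ± 0.70 (adjusted p = 8.82e-06). Of 16 arterial genes, 9 were higher and 0 lower (median 2.79). Sox17, a transcription factor of arteries, had no read in the libraries labelled sinusoidal and stood at 3.96, 5.38 and 4.49 in type H, at least 183-fold higher than the floor of 3 reads per library. Efnb2, an ephrin that marks arteries, was higher by 7.94 ± 0.84 (adjusted p = 2.9e-05). Of 13 genes listed for type H and tip cells, 9 were higher and 0 lower (median 2.54). The higher count was 6 with only the 6 libraries compared, and 6 to 9 when 1 library was left out. Their mean share was 0.107% in type H and 0.0315% in the libraries labelled sinusoidal. It was 0.115% in arterial and 0.0845% in CD200-high libraries, so it was not particular to type H. The higher genes include Angpt2, an antagonist of the receptor TIE2 (difference 5.28 ± 0.71, adjusted p = 0.000181), and Hif1a, of the hypoxia response (1.61 ± 0.25, adjusted p = 0.000441). Mmp9, a matrix protease also made by neutrophils, did not pass (-0.85 ± 0.50, adjusted p = 0.237).

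All 13 venous and adhesion genes passed, 10 higher and 3 lower in type H. Ackr1, a chemokine-binding receptor of venules, stood at 11.30, 11.11 and 11.20 against 1.06, 3.75 and 3.59 log2 CPM (difference 8.40 ± 0.61, adjusted p = 1.77e-06). Lrg1, a secreted glycoprotein of venous endothelium, stood at 12.42, 12.36 and 12.64 against 6.08, 6.94 and 7.58 (difference 5.60 ± 0.29, adjusted p = 1.1e-07). Sele, which encodes E-selectin, stood at 8.57, 8.32 and 8.41 against 0.67, 0.35 and 1.41 (difference 7.62 ± 1.56, adjusted p = 0.0032), and its mean was -4.24 in arterial and -0.38 in CD200-high libraries. P-selectin is stored in both endothelium and platelets, and its gene Selp was higher by 3.65 ± 1.0 (adjusted p = 0.0165), a call lost without the labelled sinusoidal replicate 2 (adjusted p = 0.0576). The 3 lower members were Vwf, Selplg and Cd44, the last 2 being ligands that blood cells use to attach to vessels. Vwf, the clotting factor carrier of endothelium and megakaryocytes, stood at 1.96, -5.17 and -2.63 in type H and at 6.75, 6.25 and 6.48 in the libraries labelled sinusoidal (difference -8.44 ± 2.06, adjusted p = 0.00898). Type H replicate 2 had no Vwf read. Selplg fell by 2.15 on the log2 scale (SE 0.25, adjusted p = 6.61e-05) and Cd44 by 2.71 (SE 0.38, adjusted p = 0.000222).

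Of 20 endothelial transcription factors, 11 were higher and 2 lower in type H (median 1.46, or 1.37 with the 3 genes without reads in one population at their bound). Sox18, needed for vessel development, stood at 9.36, 10.12 and 9.90 against 1.37, 2.65 and 3.91 log2 CPM (difference 7.15 ± 0.53, adjusted p = 1.84e-06), and Nr2f2, which sets venous identity, at 7.40, 7.14 and 7.17 against 1.91, -0.98 and 1.02 (difference 6.59 ± 0.70, adjusted p = 3.17e-05). Both groups were apart in each. Klf4, which shear stress induces, was higher by 3.15 ± 0.38 (adjusted p = 7.44e-05), and Gata2, shared by endothelium and blood progenitors, by 1.28 ± 0.33 (adjusted p = 0.0128), a call lost without the labelled sinusoidal replicate 2 (adjusted p = 0.051). The 2 lower members, Foxo1 and Mef2c, which B cells also express, differed by -1.56 ± 0.52 (adjusted p = 0.0442) and -0.75 ± 0.20 (adjusted p = 0.0168). The Foxo1 call was lost with the replicate number as a block (adjusted p = 0.0641) and without type H replicate 2 or any 1 labelled sinusoidal replicate (adjusted p up to 0.152 over the alternatives), and also without arterial replicate 1 or 2. It was lost in limma without trend as well. The Mef2c call was lost without type H replicate 2 or 3 or labelled sinusoidal replicate 1 and in limma without trend (adjusted p up to 0.0751).

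In the VEGF pathway the receptor genes Kdr, Flt1 and Flt4 and the co-receptor gene Nrp1 were higher in type H, by more than any other member. Of 9 members, 7 were higher and 0 lower (median 2.72). Flt1, a VEGF receptor that acts largely as a decoy, was at 7.64, 8.24 and 8.20 against 0.51, 0.30 and 0.00 log2 CPM (difference 7.76 ± 0.25, adjusted p = 5.47e-09), and the co-receptor Nrp1 was higher by 5.33 ± 0.43 (adjusted p = 3.86e-06). Of the ligands, Vegfc, which signals through VEGFR3, was higher by 2.72 ± 0.68 (adjusted p = 0.0101, or 0.0609 and not called with only the 6 libraries compared), while Vegfa differed by 0.92 ± 0.49 and did not pass (adjusted p = 0.19). Of 9 angiopoietin and apelin genes, 7 were higher and 0 lower (median 5.47), or 2 lower without type H replicate 3 and with quantile normalisation. Tek, which encodes the receptor TIE2, was higher by 6.85 ± 0.43 (adjusted p = 5.82e-07), Tie1, its partner, by 5.16 ± 0.30 (adjusted p = 3.13e-07), and Ptprb, the phosphatase that restrains TIE2, by 8.71 ± 0.40 (adjusted p = 6.07e-08). Angpt1, the ligand that activates TIE2 and that megakaryocytes and stroma make, stood at 2.79, -5.17 and 3.68 in type H and at 5.71, 5.64 and 5.93 in the libraries labelled sinusoidal, a difference that did not pass (-5.33 ± 2.07, adjusted p = 0.0755, or 0.0343 with the replicate number as a block) though the groups did not overlap.

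Notch ligands were higher in type H, and the Notch target Heyl was far lower. Of 17 Notch genes, 7 were higher and 2 lower (median 1.01). Dll4, the ligand that restrains tip cells, stood at 6.84, 6.77 and 6.36 against 0.19, -5.63 and -3.04 log2 CPM (difference 9.48 ± 1.06, adjusted p = 4.51e-05), and Dll1, another ligand, was higher by 9.88 ± 0.98 (adjusted p = 1.83e-05). Jag1 was higher by 6.20 ± 0.71 (adjusted p = 5.52e-05), and of the receptors Notch1 by 2.54 ± 0.33 (adjusted p = 0.000126) and Notch4, which is mainly endothelial, by 5.47 ± 0.72 (adjusted p = 0.000145). Heyl, a Notch target, ran the other way, at -2.96, -5.17 and 1.46 in type H and 7.50, 7.51 and 7.57 in the libraries labelled sinusoidal (difference -9.75 ± 1.30, adjusted p = 0.000167). Its mean was 6.45 in arterial and 5.03 in CD200-high libraries. In BMP and TGF-beta signalling, 18 of 31 genes were higher and 0 lower (median 2.13). The endothelial receptor gene Acvrl1 was higher by 5.73 ± 0.69 (adjusted p = 7.89e-05), the co-receptor Tgfbr3 by 4.22 ± 0.28 (adjusted p = 9.16e-07), and the target genes Id1 and Id3 by 4.79 ± 0.23 (adjusted p = 6.53e-08) and 1.77 ± 0.11 (adjusted p = 4.33e-07). Bmp4, a ligand, was higher by 2.13 ± 0.61 (adjusted p = 0.0217), a call lost without any 1 of type H replicates 1 and 3 and labelled sinusoidal replicates 1 and 2 (adjusted p up to 0.0869 over the alternatives). Voom weights also lost the Bmp4 call. Of 23 Wnt genes, 7 were higher and 2 lower (median 0.69, or 1.01 with 3 genes at their bound). Fzd4 and Tspan12, a receptor and its partner in vessel Wnt signalling, were higher by 6.45 ± 0.49 (adjusted p = 2.25e-06) and 4.35 ± 0.42 (adjusted p = 1.36e-05). Lef1, a Wnt effector also used by B cell precursors, stood at 1.88, 4.56 and -1.04 in type H and at 8.92, 9.19 and 8.97 in the libraries labelled sinusoidal (difference -7.23 ± 1.02, adjusted p = 0.000246).

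Most genes of the vessel wall were higher in type H. Of 21 basement membrane genes, 17 were higher and 1 lower in type H (median 4.60). Col4a1, a chain of the collagen that makes up basement membrane, stood at 9.77, 9.92 and 9.80 against 4.14, 4.13 and 4.72 log2 CPM (difference 5.50 ± 0.20, adjusted p = 1.22e-08), and the linker protein gene Nid1 was higher by 6.44 ± 0.29 (adjusted p = 5.77e-08). Fn1, which encodes fibronectin, was the 1 lower member (-1.97 ± 0.56, adjusted p = 0.0206), a call lost without type H replicate 3 or labelled sinusoidal replicate 1 or 3 (adjusted p up to 0.142 over the alternatives). The Fn1 call was also lost with only the 6 libraries compared and with voom weights. Of 16 junction genes, 13 were higher and 1 lower (median 4.14). Cldn5, the claudin of endothelial tight junctions, was higher by 7.78 ± 0.50 (adjusted p = 7.06e-07), and F11r, a junction adhesion molecule, by 4.04 ± 0.22 (adjusted p = 2e-07). Cdh2, which encodes N-cadherin, was the lower member, with overlapping values (-1.68 ± 0.58, adjusted p = 0.0488), a call lost with the replicate number as a block (adjusted p = 0.0707) and in 16 other alternatives, among them leaving out any 1 labelled sinusoidal replicate or any 1 type H replicate but the third (adjusted p up to 0.187). Of 15 genes of caveolae and nitric oxide, 10 were higher and 2 lower (median 1.79). Cav1, which coats these membrane pits, differed by 2.71 ± 0.29 (adjusted p = 3.58e-05), and Nos3, the nitric oxide synthase of endothelium, by 6.22 ± 0.80 (adjusted p = 0.000135). The lower ones were both chains of the nitric oxide receptor, an enzyme that platelets use too. Its gene Gucy1a1 stood at -5.28, -5.17 and 3.93 in type H, where replicates 1 and 2 had no read, and at 6.18, 5.20 and 6.28 in the libraries labelled sinusoidal (difference -8.06 ± 1.92, adjusted p = 0.00783).

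Of 17 coagulation genes, 11 were higher and 2 lower (median 2.38, or 2.77 with 1 gene at its bound). Thbd, the receptor that turns thrombin towards anticoagulation, stood at 11.44, 10.99 and 11.42 against 6.95, 6.83 and 6.92 log2 CPM (difference 4.38 ± 0.20, adjusted p = 5.77e-08), and Procr, its partner in activating protein C, was higher by 7.43 ± 0.73 (adjusted p = 1.65e-05). F8, the gene of clotting factor VIII, which endothelium makes, was higher by 7.18 ± 1.11 (adjusted p = 0.000491). Of 19 scavenger and endocytosis genes, 12 were higher and 0 lower (median 2.42). The mannose receptor gene Mrc1 was higher by 6.10 ± 0.59 (adjusted p = 1.44e-05), and Scarf1, a scavenger receptor of endothelium, by 5.77 ± 0.42 (adjusted p = 1.77e-06). Of 25 lysosome genes, 12 were higher and 1 lower (median 0.57). Ctsl, a lysosomal protease, stood at 10.92, 10.37 and 10.79 against 5.27, 4.75 and 4.89 (difference 5.72 ± 0.21, adjusted p = 1.22e-08), and Ctsb, another, was higher by 2.95 ± 0.15 (adjusted p = 1.1e-07).

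Of 17 chemokine genes, 6 were higher and 2 lower in type H (median 1.10), or 3 higher in a fit of only the 6 libraries compared. Ackr2, a receptor that scavenges inflammatory chemokines, was higher by 8.54 ± 1.67 (adjusted p = 0.00241), and Cxcl16, a membrane-bound chemokine, by 8.42 ± 1.20 (adjusted p = 0.000263). Cxcr4, the CXCL12 receptor of blood cells, was lower (-3.60 ± 0.88, adjusted p = 0.00903). Of 19 niche factor genes, 7 were higher and 0 lower (median 1.44), a count of higher genes that ranged from 3 to 8 over the alternatives and was 3 without the labelled sinusoidal replicate 1 and 4 without type H replicate 3 or without the labelled sinusoidal replicate 2. Cxcl12, which retains blood stem cells in marrow, stood at 9.80, 9.30 and 11.09 log2 CPM in type H and 8.02, 8.71 and 9.16 in the libraries labelled sinusoidal (difference 1.44 ± 0.45, adjusted p = 0.0318). This call was lost without type H replicate 3, the highest library, and without the labelled sinusoidal replicate 1 or 2 (adjusted p up to 0.126 over the alternatives). Plain CPM, quantile normalisation, only the 6 libraries compared, limma without trend and voom weights also lost it. Kitl, the stem cell factor gene, was higher by 1.69 ± 0.45 (adjusted p = 0.0147), a call lost without type H replicate 3 or the labelled sinusoidal replicate 1 and with voom weights (adjusted p up to 0.0765). Both genes are also made by reticular stroma. Of 18 genes of reticular stroma and fat, 9 were higher and 1 lower (median 1.71), 3 higher without type H replicate 3 and 4 without the labelled sinusoidal replicate 1. Their summed share was 0.188% to 0.407% in type H against 0.067% to 0.135%, none was at 0 in all libraries of either population, and its part in the niche result was not tested.

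Most B cell genes were much higher in the libraries labelled sinusoidal. Of 16 B cell genes, 13 were lower in type H and 1 higher (median -6.22), and the list took 0.124% to 0.201% of the reads in type H against 1.36% to 1.54%. None of its genes was at 0 in all 3 libraries of either population. Igll1, which encodes a surrogate light chain of the pre-B cell receptor, stood at 3.61, 4.11 and 1.52 log2 CPM in type H and at 11.63, 11.70 and 11.52 in the libraries labelled sinusoidal (difference -8.53 ± 0.73, adjusted p = 5.99e-06). Ighm, the heavy chain of IgM, stood at 5.64, 5.44 and 5.36 against 10.79, 10.54 and 10.41 (difference -5.10 ± 0.22, adjusted p = 5.54e-08). Early genes of the lineage moved in the same direction. Pax5, which commits cells to it, stood at -1.82, -1.26 and -1.04 against 7.59, 7.41 and 7.53 (difference -8.89 ± 1.57, adjusted p = 0.00122). Rag1, of the recombinase that joins antigen receptor genes, differed by -9.49 ± 1.46 (adjusted p = 0.000466), and Il7r, the interleukin 7 receptor, by -11.77 ± 0.96 (adjusted p = 4.31e-06), with 4 reads in all in type H. Ms4a1, which encodes CD20 of mature B cells, was similarly low in both populations, at 4.28, 2.72 and 4.19 against 3.44, 2.80 and 3.67 (difference 0.43 ± 1.57, adjusted p = 0.877). Xbp1, a secretory stress factor of plasma cells and many other cells, was the 1 member higher in type H (2.34 ± 0.22, adjusted p = 1.2e-05).

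Megakaryocyte and platelet genes showed the same direction. Of 14, 13 were lower in type H and 1, Selp, was higher (median -7.76), and the list took 0.0378% to 0.0444% of the reads in type H against 0.464% to 0.677%. No member was at 0 in all libraries of either population. Pf4, a platelet chemokine, stood at 5.64, 4.84 and 5.50 log2 CPM in type H and at 10.19, 10.31 and 10.15 in the libraries labelled sinusoidal (difference -4.89 ± 0.47, adjusted p = 1.27e-05). Gp9, of the platelet receptor for von Willebrand factor, stood at -0.15, -5.17 and -4.95 against 8.31, 8.0 and 8.11 (difference -11.56 ± 1.66, adjusted p = 0.000284). Itgb3, a subunit of the fibrinogen receptor, stood at 3.97, 3.28 and 4.55 against 9.51, 9.03 and 9.02 (difference -5.25 ± 0.64, adjusted p = 8.63e-05). In each of these the groups were far apart. The mean levels in arterial and CD200-high libraries were 7.90 and 4.01 for Pf4 and 6.04 and -0.99 for Gp9.

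**Figure D3:**
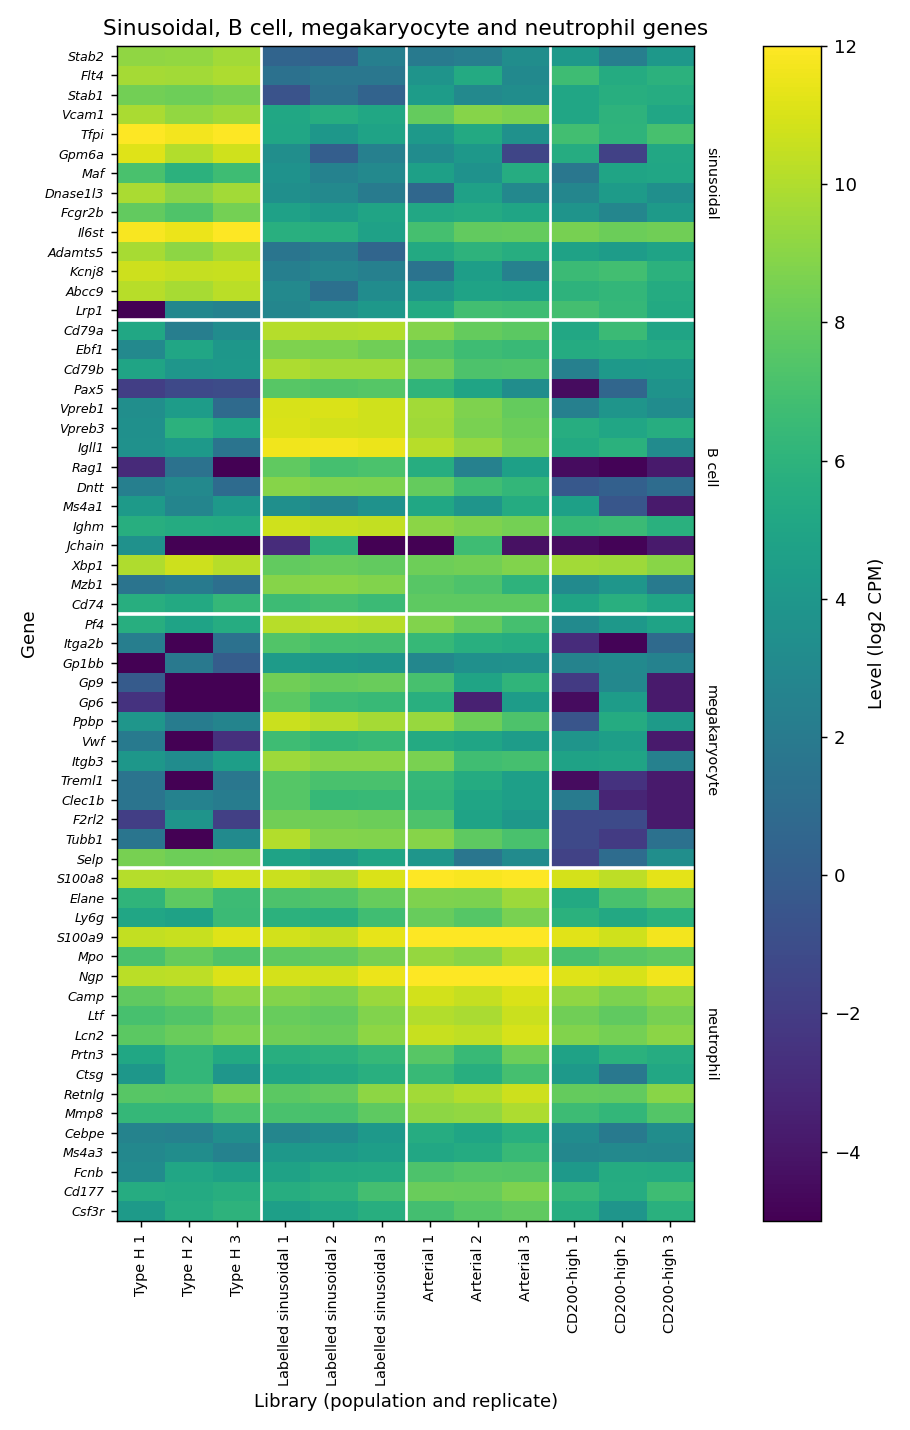
Levels (log2 CPM, colour scale) of genes from the sinusoidal, B cell, megakaryocyte and neutrophil lists, 1 row per gene, in the 12 libraries, 1 column per library, with white lines between populations and lists. The sinusoidal block is bright in the 3 type H columns, the B cell and megakaryocyte blocks in the 3 columns labelled sinusoidal, and the neutrophil block in the arterial columns.

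Most bone-forming genes were lower in type H as well. Of 18 osteoblast and osteocyte genes, 13 were lower and 0 higher (median -5.88, or -5.64 with 3 genes at their bound). Col1a1, a chain of bone collagen, stood at 1.06, 3.03 and 4.20 log2 CPM in type H and at 11.23, 9.87 and 10.67 in the libraries labelled sinusoidal (difference -7.82 ± 0.61, adjusted p = 2.97e-06). Bglap, which encodes osteocalcin and is nearly identical to Bglap2, so that reads may have gone to either, stood at 1.75, 4.68 and 5.19 against 11.69, 10.71 and 11.58 (difference -7.45 ± 0.67, adjusted p = 7.98e-06). Spp1, which encodes osteopontin, fell by less, at 7.27, 6.27 and 8.16 against 10.08, 9.95 and 10.35 (difference -2.90 ± 0.41, adjusted p = 0.000251). Ibsp, the bone sialoprotein gene, did not pass, at 8.60, 6.54 and 9.59 against 9.36, 8.79 and 9.40 (difference -0.94 ± 0.59, adjusted p = 0.271), and neither did Sparc, a matrix protein that endothelium makes too (0.95 ± 0.33, adjusted p = 0.0505, or 0.0197 with the replicate number as a block). Without type H replicate 3 Ibsp did pass as lower (limma adjusted p = 0.0418). Sparc passed as higher in 6 alternatives, the block among them. The count of lower genes in the list ranged from 10 to 15 over the alternatives. The list took 0.414% to 0.541% of the reads in type H and 0.902% to 1.90% in the libraries labelled sinusoidal, against an average of 14.3% in CD200-high libraries. Cpz, a carboxypeptidase of the list, had no type H read, which puts it at least 148-fold lower, and Postn and Kcnk1 had none either.

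Neutrophil, erythroid and monocyte genes differed less by median than the B cell, megakaryocyte and bone-forming lists. Of 18 neutrophil genes, 0 were higher and 1 lower in type H (median -0.60), and the list took 0.474% to 0.823% against 0.726% to 1.25% of the reads. Without type H replicate 3 the count of lower neutrophil genes was 4. S100a8, an abundant neutrophil protein, stood at 10.11, 10.04 and 10.80 against 10.61, 10.08 and 11.03 log2 CPM, with overlapping groups (difference -0.25 ± 0.32, adjusted p = 0.615). Of 22 erythroid genes, 1 was higher and 5 lower (median -1.41), with shares of 0.368% to 0.708% and 0.419% to 0.728%, and the haemoglobin gene Hbb-bt, one of several near-identical copies, did not pass (0.13 ± 0.36, adjusted p = 0.839). The count of lower erythroid genes was 2, 3 and 1 without the labelled sinusoidal replicates 1, 2 and 3 and 8 without CD200-high replicate 2. The 1 higher member was Epor, the erythropoietin receptor, which endothelium also expresses (3.02 ± 0.48, adjusted p = 0.000558). Of 19 monocyte and macrophage genes, 5 were higher and 3 lower (median -0.70), or 5 lower without type H replicate 3. Vcam1, among the higher ones, is also counted in the sinusoidal list. The higher ones include the receptors Mertk (6.63 ± 1.07, adjusted p = 0.000669) and Axl (3.74 ± 0.42, adjusted p = 4.64e-05) for dying cells, while C1qa, a complement gene of resident macrophages, was lower (-3.39 ± 0.87, adjusted p = 0.012), a call lost in 3 alternatives, with log2(CPM + 10), with only the 6 libraries compared and with voom weights (adjusted p up to 0.0824). Of 15 stem and progenitor genes, 4 were higher and 6 lower (median -2.21). The 4 higher ones, Cd34, Procr, Mecom and Gata2, are also endothelial genes, and Slamf1, a stem cell and megakaryocyte receptor, had 1 read in type H against 1581. Of 14 mural cell genes, 4 were higher and 2 lower, and the 4 were Kcnj8, Abcc9, Mcam and Mylk. Kcnj8 and Abcc9 are also counted in the sinusoidal list. The mural list took 0.27% to 0.314% of the reads in type H and 0.00966% to 0.0122% in the libraries labelled sinusoidal. The count of lower mural genes was 0 without type H replicate 1 and with quantile normalisation, and 1 without any 1 other type H, labelled sinusoidal or arterial replicate or CD200-high replicate 1. The call of Mylk, a contractile kinase gene, was lost without type H replicate 1 or 3 or labelled sinusoidal replicate 2 or 3 (adjusted p 0.0272, up to 0.108). The counts of the remaining lists of other cell types stand beside 13.9% higher and 14.6% lower over all genes. T and NK cell genes had 0 higher and 3 lower of 11, dendritic genes 3 and 1 of 12 and lymphatic genes 1 and 1 of 7. Mast cell, basophil and eosinophil genes had 1 and 2 of 14, or 4 lower without labelled sinusoidal replicate 2. The rest were cartilage (0 and 1 of 11), osteoclast (0 and 2 of 9), Schwann cell (0 and 1 of 5) and skeletal muscle genes (0 and 0 of 10). Few calls in a list did not mean like shares. T and NK cell genes averaged 0.0063% of the reads in type H against 0.0439%, and osteoclast genes 0.0154% against 0.0967%. Cartilage shares were close, at 0.0137% against 0.0144%.

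The B cell, megakaryocyte and bone shares moved with the population, and so did the endothelial shares in the opposite direction. The part of these other cell types in the endothelial differences was not tested.

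**Figure D4:**
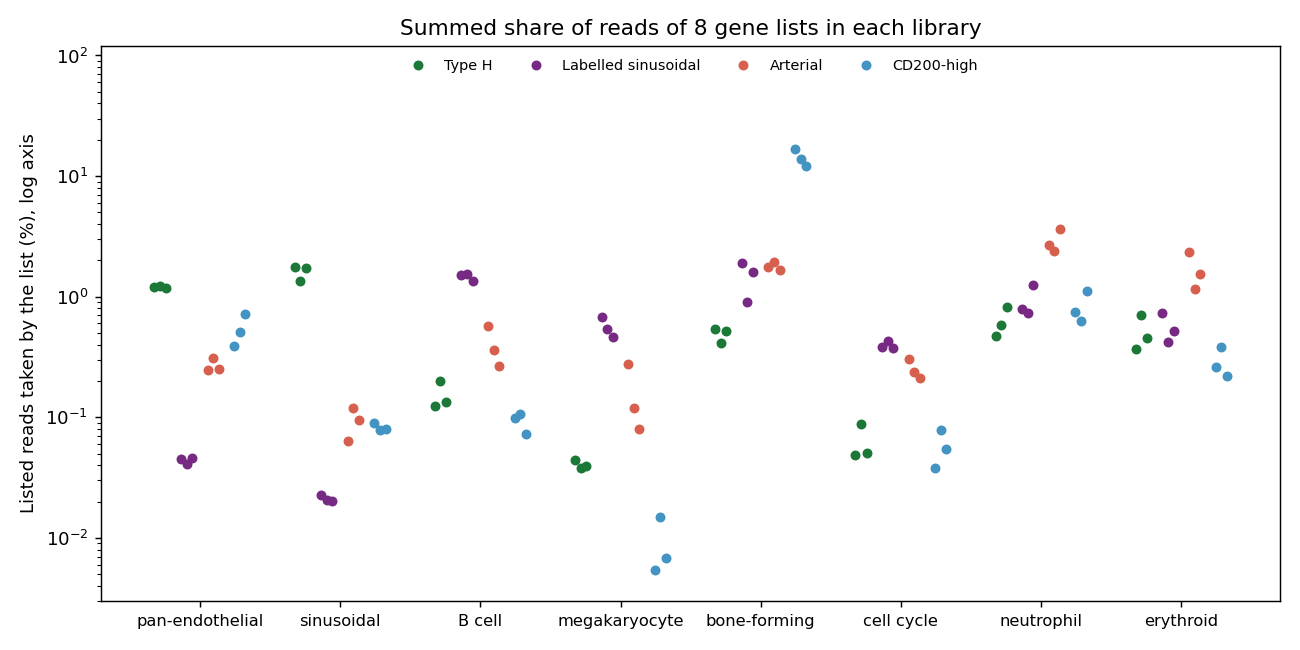
Summed share of listed reads (%, log axis) taken by 8 gene lists, with 1 point per library in the 4 populations. The pan-endothelial and sinusoidal shares are lowest and the B cell, megakaryocyte and cell cycle shares highest in the 3 libraries labelled sinusoidal, while their neutrophil and erythroid shares overlap those of type H.

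Proliferation genes were lower in type H without exception in direction. All 32 cell cycle genes had their 3 type H values below the 3 of the libraries labelled sinusoidal, with differences from -6.23 to -1.36 (median -2.94), and 28 of 32 passed, against 14.6% lower over all genes. The list took 0.0488% to 0.0885% of the reads in type H and 0.376% to 0.431% in the libraries labelled sinusoidal, which also held the higher B cell share, whose part in this result was not tested. Its mean share was 0.0571% in CD200-high libraries, near the 0.0625% of type H, and 0.251% in arterial libraries. Cdk1, the kinase that drives entry to mitosis, stood at 3.86, 4.69 and 3.13 log2 CPM in type H and at 5.96, 6.05 and 5.99 in the libraries labelled sinusoidal (difference -2.11 ± 0.40, adjusted p = 0.00212). Ccnb2, one of its cyclins, stood at 3.63, 5.05 and 3.22 against 6.64, 6.61 and 6.64 (difference -2.66 ± 0.48, adjusted p = 0.0015). Rrm2, of the enzyme that makes DNA precursors, differed by -3.88 ± 0.38 (adjusted p = 1.76e-05), and Mki67, a marker of cycling cells, by -3.40 ± 0.63 (adjusted p = 0.00168). Among the type H libraries replicate 2 was the highest in Cdk1, Ccnb2 and Mki67.

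The promoters of Cdk1 and Ccnb2, picked for display after their values were seen, are shown because both genes were lower in type H. They were also taken because each holds the letters TTTGAA. These are the letters of the cell cycle genes homology region element, through which late cell cycle genes are repressed in resting cells. A match is a run of letters, not a shown element, and its part in the lower levels was not tested. The windows run from 250 bases before to 30 after the start, from RefSeq, build GRCm38.p6, with each match in capitals. Cdk1 lies on the minus strand at chr10:69352883-69353162, with matches 71 and 15 bases before the start, and Ccnb2 on the minus strand at chr9:70421525-70421804, with matches 167 bases before and 4 bases after it.
Cdk1: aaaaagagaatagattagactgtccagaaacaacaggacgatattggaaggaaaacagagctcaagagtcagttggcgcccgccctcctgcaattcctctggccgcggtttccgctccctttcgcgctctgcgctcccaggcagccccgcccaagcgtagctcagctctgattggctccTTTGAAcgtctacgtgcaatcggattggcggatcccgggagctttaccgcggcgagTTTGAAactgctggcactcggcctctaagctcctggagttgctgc
Ccnb2: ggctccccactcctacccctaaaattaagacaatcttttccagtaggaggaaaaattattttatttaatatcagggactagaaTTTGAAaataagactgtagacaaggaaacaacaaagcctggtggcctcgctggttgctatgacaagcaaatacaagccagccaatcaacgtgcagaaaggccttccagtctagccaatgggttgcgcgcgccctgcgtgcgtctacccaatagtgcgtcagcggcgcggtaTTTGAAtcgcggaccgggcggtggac
On either strand of the window of 250 bases before to 50 after the start, TTTGAA was in 11 of 29 promoters of cell cycle genes (37.9%, from 27 of 32 genes), against 13% of promoters of tested genes and 17.9% of all promoters. No other searched motif shares its letters.

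The remaining programmes moved in part. Of 25 interferon response genes, 11 were higher and 2 lower in type H (median 0.99). Bst2, a tethering factor against viruses, was higher by 2.74 ± 0.25 (adjusted p = 8.2e-06), and Ifitm3, a block to virus entry, by 2.25 ± 0.16 (adjusted p = 1.77e-06). Promoters that hold the spaced core of the interferon-stimulated response element on either strand made up 54.2% of those of the list (13 of 24) against 3.3% of those of tested genes, and both genes are among those that hold it. Of 20 early response and chaperone genes, 9 were higher and 1 lower (median 1.05), with Fos at 11.71, 11.15 and 11.97 against 8.82, 8.19 and 8.95 log2 CPM (difference 2.96 ± 0.22, adjusted p = 1.81e-06). Socs3, which dampens signals through the Il6st chain, was higher by 3.12 ± 0.28 (adjusted p = 7.89e-06). Of 15 MHC class I genes, 6 were higher and 1 lower (median 0.21). With plain CPM or quantile normalisation 3 were higher, and with the replicate number as a block 5 were higher and 0 lower. The largest of the rises was Tapbp, a peptide loader (1.17 ± 0.18, adjusted p = 0.000432). Of 8 MHC class II genes, 0 were higher and 3 lower (median -2.27), or 5 lower without CD200-high replicate 2. H2-Ab1, a class II chain of B cells and other antigen-presenting cells, differed by -2.65 ± 0.63 (adjusted p = 0.00797). Of 15 genes that restrain immune cells, 7 were higher and 2 lower (median 0.34). Nectin2, seen by receptors on T and NK cells, was higher by 7.10 ± 0.49 (adjusted p = 1.32e-06), while the galectin gene Lgals1 was lower (-1.45 ± 0.15, adjusted p = 2.99e-05).

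Calls went in both directions in the glycolysis, sterol, heme and ribosomal lists. In the respiratory chain and proteasome lists all calls were lower. Of 26 glycolysis and hypoxia genes, 6 were higher and 6 lower (median 0.02, range -5.46 to 5.94), or 3 lower without type H replicate 1 or labelled sinusoidal replicate 3. Epas1, the hypoxia factor of endothelium, was higher by 5.94 ± 0.28 (adjusted p = 6.26e-08) and Slc2a1, the main glucose transporter of vessels, by 2.26 ± 0.35 (adjusted p = 0.000487), while Slc2a3, a glucose transporter of blood cells and platelets, was lower (-5.46 ± 1.26, adjusted p = 0.00669). Of 17 sterol synthesis genes, 3 were higher and 4 lower, with a median of -0.90 and a range of -4.33 to 3.80 (2 lower without labelled sinusoidal replicate 2 or 3). Of 19 heme and iron genes, 3 were higher and 1 lower (median 0.18), or 1 higher without labelled sinusoidal replicate 1, with plain CPM and with quantile normalisation. Ribosomal protein genes had 1 of 28 higher and 6 lower (median -0.23), the respiratory chain 0 and 5 of 25 (median -0.22) and the proteasome 0 and 4 of 20 (median -0.35). These 3 medians lie near the -0.20 of all genes, and the lower counts depended on scaling: 16 ribosomal, 7 respiratory and 11 proteasome genes were lower with plain CPM, and 21, 11 and 11 with quantile normalisation. Without type H replicate 2 and without labelled sinusoidal replicates 2 and 3 the count of lower ribosomal genes was 2, 2 and 3. The lower respiratory count was 3 without CD200-high replicate 2, type H replicate 2 or 3 or any 1 labelled sinusoidal replicate, and the proteasome count was 7 without CD200-high replicate 3.

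**Figure D5:**
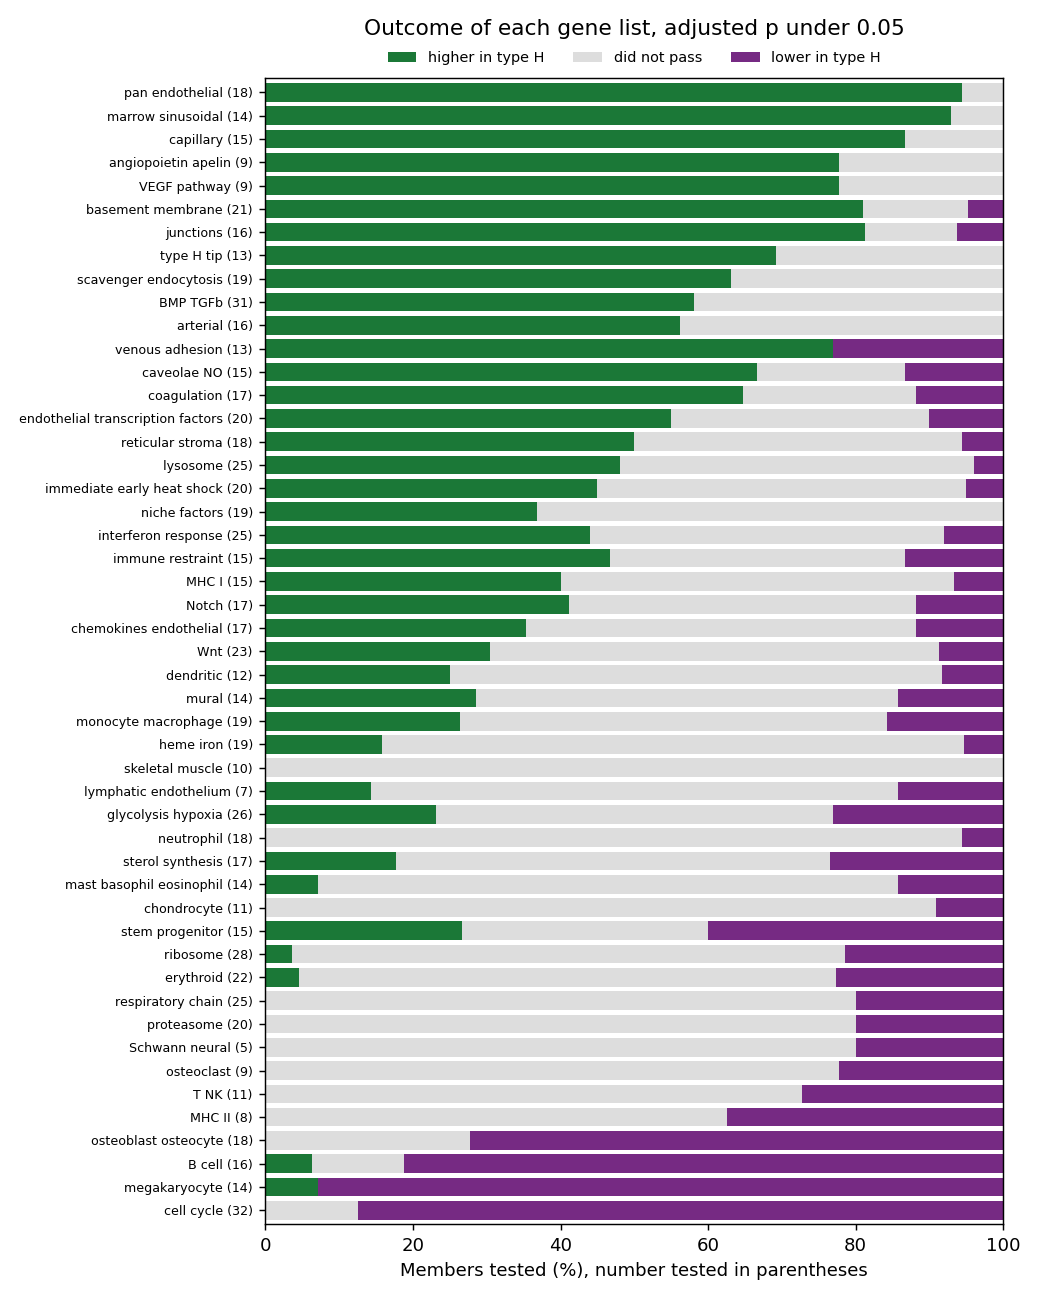
Share of the tested members of each of the 49 gene lists (%, number tested in parentheses) that were higher in type H, did not pass, or were lower in type H at an adjusted p under 0.05. Vessel lists fill the top with 17 of 18 pan-endothelial and 13 of 14 sinusoidal genes higher, and cell cycle (28 of 32), megakaryocyte (13 of 14) and B cell genes (13 of 16) lie at the bottom.

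The largest differences overall were taken among named genes that passed, with a mean of at least 6 log2 CPM in the higher population and no overlap, so size and separation chose them, and no lineage was tested for them. The 15 largest rises in type H were Adgrg6, Fgd5, Slco2a1, Sgk2, Gpr4, Rasip1, Cfd, Adcy4, Spaar, Stc1, Ramp3, Ednrb, Adh6b, Plscr2 and Mid2. Fgd5, an exchange factor of endothelium, had no read in the libraries labelled sinusoidal and was at least 720-fold higher in type H, where it stood at 7.08, 6.46 and 6.48 log2 CPM. Adgrg6, an adhesion receptor, stood at 7.79, 7.88 and 7.62 with 11599 reads against 2, a ratio of normalised reads of 6920 (95% counting interval 1910 to 57100). Its mean was -1.31 in arterial and -2.88 in CD200-high libraries. Sgk2, a kinase gene, was at least 525-fold higher, and also low in arterial (-2.34) and CD200-high libraries (-2.40). Slco2a1, a prostaglandin transporter, stood at 9.01, 9.34 and 9.0 against -5.17, -5.63 and 2.40 (difference 11.92 ± 1.86, adjusted p = 0.000509), where labelled sinusoidal replicate 3 alone had reads.

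The 15 largest falls included Gfra1, Bfsp2, Gcsam, Il7r, Gp9, Gpr18, P2rx1, Grb7, Smtnl2, Rag2, Gp6, Ighg2b, Scn4b and Irf4. They hold the lymphoid genes Il7r, Rag2, Irf4 and Ighg2b and the platelet genes Gp9, Gp6 and P2rx1, an ATP-gated channel. Rag2, the partner of Rag1, stood at -3.70, -2.85 and -1.25 log2 CPM in type H and at 8.91, 8.23 and 8.57 in the libraries labelled sinusoidal (difference -11.17 ± 1.56, adjusted p = 0.000235). Gfra1, a receptor for glial growth factors, stood at -5.28, -5.17 and -1.78 against 8.84, 8.54 and 8.38 (difference -12.67 ± 1.87, adjusted p = 0.000349). Without a single type H read, Bfsp2, Gpr18, P2rx1 and Grb7 were at least 768-fold, 441-fold, 439-fold and 440-fold lower.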

How the data were processed

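RNA was measured in 12 sorted libraries, 3 per population, grouped by their titles. The deposited table holds 17362 genes in log2 units, which the authors made from counts per 1e6 reads with 0.5 read added, on a scaled library size. This was worked out from the values, since undoing it gave whole reads within 0.01 for 100% of values. Per the submitters' processing notes, Trimmomatic, STAR, SAMtools, deepTools, featureCounts and R 4.3 were used, settings not given. The notes name a human build for mouse samples, so no coordinates are given for the table's genes, and promoters come from RefSeq. Strand is not stated, so overlapping antisense genes are uncertain.

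Limma 3.58.1 in R 4.3.3 was run with a trend on the deposited log2 values of all 12 libraries, with Benjamini-Hochberg adjustment over 17086 genes. Genes stayed in with at least 10 reads in 3 libraries once each was brought to 15.9 M effective reads (0.63 CPM), and 276 genes were removed. The 0.5 read added shrinks differences of genes with few reads. A library at 0 reads has a level near -5. Fold bounds use a floor of 3 reads per library, and these and the 95% intervals cover counting error only. Depth was 16.16 to 21.63 M reads in the 6 libraries compared. The script was checked on simulated data with the same spread set for all genes. It recovered 7 of 50 genes changed 2-fold, 47 of 50 changed 4-fold and 50 of 50 changed 8-fold. A gene that did not pass may therefore still differ by about 2-fold, and by more where its libraries vary widely. Angpt1 and Lrp1 did not pass at differences of -5.33 and -3.36.

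The members and the 49 lists (775 genes, 747 in the table and tested) were chosen with earlier results of these data known. The rule for named genes took the antigens, the 15 largest rises and falls at a level of at least 6, the first 3 and up to 4 best of each list, and the 10 smallest p, 286 genes in all. The text describes those that lead each list and adds other list members (among them Vwf, Heyl, Pax5, Igll1, Cdk1, Ccnb2, Clec14a, Ms4a1 and Ibsp) chosen after their values were seen. Each population's labels carry mouse numbers 1 to 3 while 6 mice are named, and deviations of same-numbered libraries correlated at 0.08, 0.11 and 0.07 over 9846 genes, other pairs at -0.10 to 0.03, and the block was run as an alternative. The alternatives changed scaling, filter, log offset, the fit, the block and the libraries. A few list members counted in the totals are not reported here by name.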

Additional observations from a re-analysis of the deposited data

How the results depend on the processing

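The count of called genes stayed within 1.5 times of 4882 in all 22 alternatives run, from 3767 without the labelled sinusoidal replicate 1 to 5779 with voom weights, as did the higher and lower counts. Leaving out each library in turn gave 3767 to 5117 called genes, 1957 to 2474 higher and 1758 to 2653 lower. Plain CPM of the listed reads moved the median difference of all genes by -0.18 and the share of higher calls from 48.8% to 41.2%, and log2(CPM + 10) moved the median by 0.16. With the replicate number as a block, 4796 genes passed, 2342 higher and 2454 lower. The block changed the calls of Cdh2, Foxo1, Angpt1 and Sparc and of no other gene named above. Of 160 genes named, 150 passed. Of these, 135 kept their call in all 22 alternatives, 15 lost it in at least 1, and 0 reversed. Hbb-bt, which did not pass, changed sign with plain CPM (-0.05) and quantile normalisation (-0.17), and ranged from -0.15 to 0.43 when a library was left out. The planned edgeR and DESeq2 fits were not run, as the deposited values are on a log2 scale. Depth limits the genes without reads in one population, for which only a bound on the fold can be given.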
